A study of Rattus norvegicus with 13 samples.

Results

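Genes of white and brown adipocytes were followed in the thyroid of 13 male Wistar rats, 6 from mothers given potassium iodide (KI-treated group) and 7 from mothers given saline (control group). The set holds 10 genes, namely Adipoq, Plin1, Fabp4, Cfd, Lep, Retn, Pparg, Lpl, Ucp1 and Cidea, out of 36174 gene names on the array, and every probe that the array design names for one of them was kept (12 of 45598 probes). The rule names the genes and uses no measured value, although the set was proposed with earlier results of these data known. The pregnant rats received 1 mg/kg of KI per day, or 0.9% NaCl in the control group, by gavage on 8 days that began at gestational day 9, and the end of dosing is day 16 in the study's methods and day 17 in its introduction. The thyroids of the progeny were collected 30 days after weaning, at 51 days after birth, and 1 one-colour Agilent array was hybridised with the RNA of each thyroid. The methods give 16 pregnant rats and 13 animals per group of progeny. The litter of each animal is not given, so some animals may share a mother, and p-values measure the spread between these arrays only.

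White adipocytes store triglyceride in a large lipid droplet and secrete hormones such as adiponectin and leptin. Brown adipocytes hold many small droplets and mitochondria, and burn fatty acids for heat through the uncoupling protein UCP1. Both cell types depend on the nuclear receptor PPARγ, and depots of both kinds lie in the neck of the rat, where fat can adhere to a dissected gland. The comparisons asked whether the adipocyte genes rise and fall together from animal to animal, how the brown genes compare with the white ones, and whether the KI-treated group differs from the control group. In RNA of a whole gland, fewer cells of a type and less RNA per cell cannot be told apart.

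Each array probe is a stretch of 60 bases. The probes of Ucp1, Cidea, Plin1 and Fabp4 are shown because they show what was hybridised for both brown genes, for the droplet coat protein and for a fatty acid carrier. Their positions are those of the array design, on build rn4. The Ucp1 probe lies on chromosome 19 at chr19:26527687-26527746 on the minus strand, and the Plin1 probe on chromosome 1 at chr1:135499035-135499094 on the minus strand. The Cidea probe runs from 63888076 to 63895390 on chromosome 18 and the Fabp4 probe from 93536175 to 93538589 on chromosome 2, both on the plus strand. These spans of 7315 and 2415 bases exceed the 60 bases of the probe, as for a probe placed across a splice junction. No part is capitalised.
Ucp1 probe: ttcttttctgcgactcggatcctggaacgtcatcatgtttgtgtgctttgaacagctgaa
Cidea probe: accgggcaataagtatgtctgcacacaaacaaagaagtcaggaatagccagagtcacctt
Plin1 probe: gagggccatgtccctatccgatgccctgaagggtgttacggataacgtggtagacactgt
Fabp4 probe: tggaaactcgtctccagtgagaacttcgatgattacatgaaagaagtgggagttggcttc

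The 250 bases before the start of transcription are shown for Adipoq, the white gene against which the others were set, and for Ucp1, the defining brown gene (RefSeq, build GRCr8). The Adipoq window is chr11:91240170-91240419 and the Ucp1 window chr19:41721422-41721671, both on the minus strand. Capitals mark each match on either strand to a TATA box (letters TATAAA), to a CCAAT box (letters CCAAT), or to the nuclear receptor motif with the letters AGGTCA. These 3 motifs do not contain each other.
Adipoq upstream window: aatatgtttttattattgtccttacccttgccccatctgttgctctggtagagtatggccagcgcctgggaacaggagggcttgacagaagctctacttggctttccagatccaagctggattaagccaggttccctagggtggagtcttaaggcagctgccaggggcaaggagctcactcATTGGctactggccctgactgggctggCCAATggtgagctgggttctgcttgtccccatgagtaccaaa
Ucp1 upstream window: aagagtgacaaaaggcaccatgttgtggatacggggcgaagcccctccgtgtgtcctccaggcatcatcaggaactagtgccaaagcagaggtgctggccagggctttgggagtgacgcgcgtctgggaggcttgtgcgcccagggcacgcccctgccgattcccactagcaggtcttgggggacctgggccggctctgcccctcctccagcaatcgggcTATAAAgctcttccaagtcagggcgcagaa

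The table of upstream windows matched 8 of the 10 genes, with 9 windows because Pparg has more than 1. CCAAT occurred in the windows of Adipoq, Plin1, Lep and Pparg, or 4 of the 9 windows, and in 34% of all 33469 windows. TATAAA occurred in 1, that of Ucp1, and in 12.9% of all windows. The nuclear receptor motif AGGTCA occurred in 1, that of Retn, and in 14.1% of all windows. The Adipoq window holds CCAAT once on each strand and the Ucp1 window holds TATAAA close to its end.

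Values are log2 intensities relative to the 75th percentile of the probes of the same array, so 0 is the level of that percentile, and 1 unit is a doubling. A gene with several probes is given by its brightest. Levels of different genes come from different probes and were not compared with each other. The genes were well detected. Of the 10, 8 were above background on all 13 arrays, and Plin1 and Lep on 12. The lowest animal of the 13 and the highest differed by 2.15-fold for Pparg, the smallest range of the set, and by 22.2-fold for Lep, the largest.

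Correlations between arrays lay between 0.952 and 0.988, and 34840 to 41050 of the 58717 gene spots per array were above background. Thyroglobulin (Tg), the defining product of thyroid follicular cells, was above background on all 13 arrays, and 11 of 12 follicular cell markers passed the filter on dim probes, all except Slc26a4. KI-treated animal 6 stood apart for the adipocyte genes. It had the lowest value of all 13 animals for 7 of the 10 genes (Adipoq, Plin1, Fabp4, Cfd, Retn, Pparg and Lpl) and the lowest of the KI-treated group for 8, with Cidea added. Its array had 37661 gene spots above background, inside the range of the others. Control 6 was highest for 4 genes (Adipoq, Cfd, Lep and Pparg). Its array had the fewest gene spots above background (34840) and the lowest 75th percentile of intensity (1253, against 1489 to 2447 on the others), and it was also highest for the summed follicular, parathyroid and nerve markers. The part of that array in the differences was not tested. Without it, 0 of the 10 genes passed an unadjusted 0.05 between the groups, and 2619 of all 25717 probes tested did.

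Among all 25717 probes tested with limma, 0 (0%) passed an adjusted p of 0.05 between the groups, and the smallest adjusted p was 0.257. Of these probes, 3271 (12.7%) passed 0.05 without adjustment, and on 151 (0.587%) the values of the groups did not overlap. Of the adipocyte genes, 0 passed after adjustment, 2 of 10 (Adipoq and Cfd) passed without adjustment in limma, and 0 had groups that did not overlap. The mean was lower in the KI-treated group for 8 genes and higher for Fabp4 and Cidea. The median log2 difference over the 10 genes was -0.28, beside -0.08 over all probes tested. The median size of the difference was 0.283, beside 0.190. No adipocyte gene therefore passed the test over all probes, and each difference below is given as a value with its interval.

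**Figure D1:**
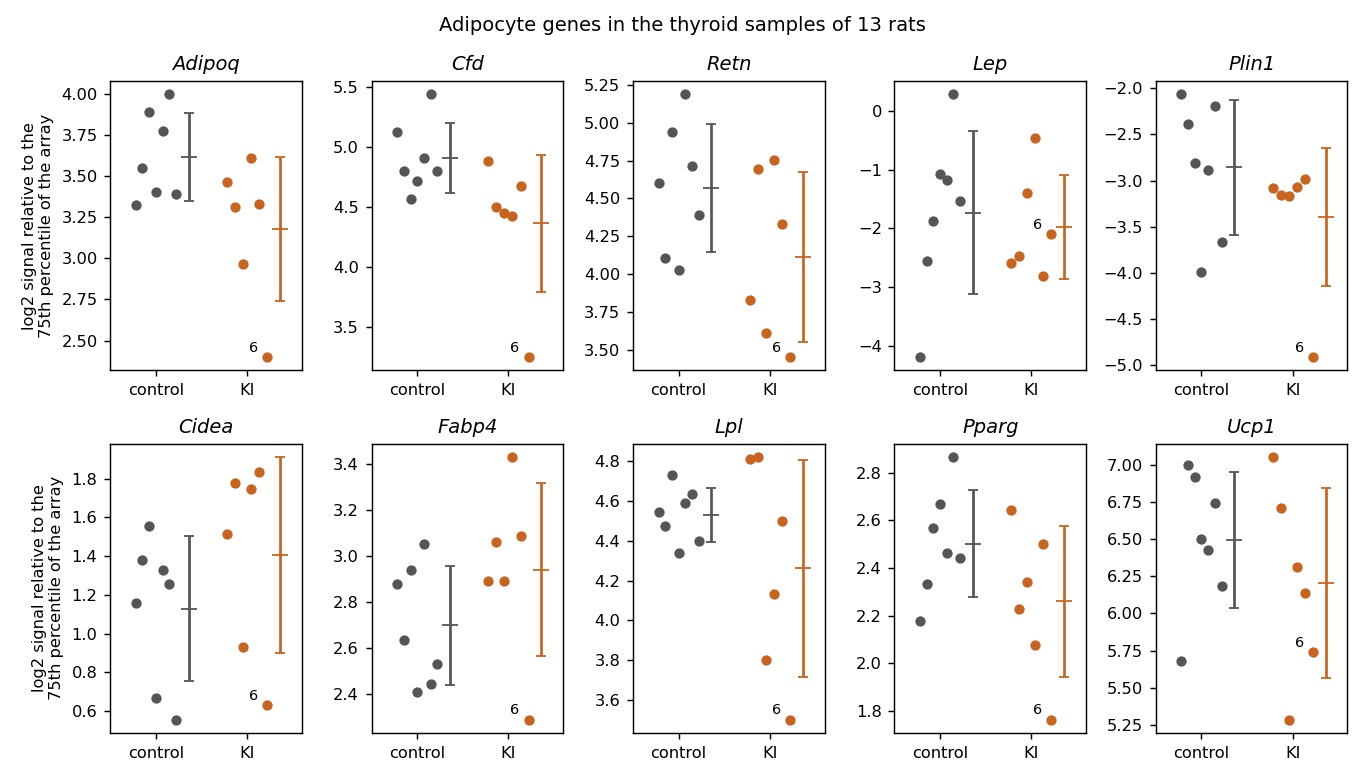
Level of each adipocyte gene in each animal, as log2 signal above or below the array's 75th percentile (vertical axis, a separate scale per gene), for 7 control and 6 KI-treated animals. Points are animals, bars are the mean and SD, and the digit 6 marks KI-treated animal 6, which is the lowest of all 13 for 7 genes. The groups overlap for every gene.

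Adipoq encodes adiponectin, a hormone secreted by adipocytes. Its level in the KI-treated group was 2.40 at the lowest, 3.32 at the median and 3.61 at the highest, and in the control group 3.32, 3.55 and 4.0. The lowest level was that of KI-treated animal 6, and 5 of the 6 KI-treated animals lay below the control median. The log2 difference was -0.44 (standard error 0.19, 95% interval -0.84 to -0.03, adjusted p = 0.385 in limma). An exact permutation test (two-sided, on the means, enumerating the 1716 ways to split the animals into 6 and 7) gave p = 0.0420. Without KI-treated animal 6 the difference was -0.28, a change of more than 1.5 times, and Adipoq no longer passed an unadjusted 0.05. Within the 3 scan sessions it was -0.56, -0.37 and -0.07.

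Cfd encodes complement factor D, also called adipsin, a serine protease secreted by fat. Its level was 3.25, 4.48 and 4.88 in the KI-treated group (lowest, median, highest) and 4.57, 4.80 and 5.44 in the control group. KI-treated animal 6 lay far below the other animals, of which the next lowest was at 4.43, and 5 of the 6 KI-treated animals were below the control median. On the log2 scale the groups differed by -0.54 (standard error 0.23, 95% interval -1.03 to -0.06, adjusted p = 0.379 in limma), with p = 0.0169 in the exact permutation test. It was -0.32 without KI-treated animal 6, a change of more than 1.5 times, and no longer passed an unadjusted 0.05. Within the scan sessions the differences were -0.60, -0.69 and -0.33.

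That Adipoq and Cfd passed 0.05 without adjustment depended on the scaling. With the 75th percentile taken over all gene spots, repeats of a probe included, 0 of the 10 genes passed, and the log2 differences were -0.36 for Adipoq and -0.46 for Cfd. Quantile normalization, scaling by the array median, the deposited log2 values, slide as a block and the replicate block also left 0 genes. Over all 25717 probes, from 2356 (replicate block) to 3984 (slide as a block) passed in these settings.

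Retn encodes resistin, a hormone that white adipocytes of rodents secrete. Its level was 3.45, 4.08 and 4.75 in the KI-treated group and 4.03, 4.60 and 5.19 in the control group. The lowest values were those of KI-treated animals 6, 3 and 1, yet KI-treated animals 4 and 2 lay above the control median. The KI-treated mean minus the control mean was -0.46 (95% interval -0.99 to 0.08, adjusted p = 0.425 in limma). It was -0.29 with scan session as a block and -0.70 with array quality weights.

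Lep encodes leptin, the hormone that signals fat stores to the brain. Its brighter probe ranged from -2.82 through a median of -2.28 to -0.46 in the KI-treated group and from -4.19 through -1.54 to 0.28 in the control group. Both extremes of the 13 animals were controls, control 1 at the bottom and control 6 at the top. The log2 difference was -0.24 (95% interval -1.49 to 1.01, adjusted p = 0.826 in limma), and it was -1.54, 0.87 and 1.06 within the 3 scan sessions. The sign turned without control 6 (0.094) and with scan session as a block (0.10). The other Lep probe was above background on 0 of 13 arrays and was not tested.

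Plin1 encodes perilipin 1, the coat protein of the adipocyte lipid droplet. It was among the dimmer probes, with -4.91, -3.12 and -2.99 in the KI-treated group and -3.99, -2.81 and -2.06 in the control group. The other 5 KI-treated animals lay between -3.17 and -2.99, while KI-treated animal 6 was the 1 array of the 13 on which the probe was not well above background. The difference on the log2 scale came to -0.54 (95% interval -1.33 to 0.24, adjusted p = 0.486 in limma) and -0.24 without that animal, a change of more than 1.5 times. The deposited values gave -0.29.

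Fabp4 encodes the adipocyte fatty acid binding protein, which carries fatty acids in the cytosol. It was 2.29, 2.98 and 3.43 in the KI-treated group and 2.41, 2.64 and 3.06 in the control group. Of the 6 KI-treated animals, 5 lay above the control median and KI-treated animal 6 was the lowest of all 13. On the log2 scale the groups differed by 0.24 (95% interval -0.13 to 0.61, adjusted p = 0.501 in limma). It was 0.37 without that animal, when Fabp4 passed an unadjusted 0.05 in limma, but 0.14 without KI-treated animal 4 and 0.08 with array quality weights, all changes of over 1.5 times.

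Lpl encodes lipoprotein lipase, which releases fatty acids from circulating triglyceride. Its brighter probe was 3.50, 4.32 and 4.82 in the KI-treated group and 4.34, 4.54 and 4.73 in the control group. The KI-treated animals held both ends of the range, and the 7 controls lay close together (SD 0.136, against 0.545 in the KI-treated group). The log2 difference was -0.27 (95% interval -0.70 to 0.16, adjusted p = 0.513 in limma) and -0.12 without KI-treated animal 6 or -0.18 without KI-treated animal 3, both changes of over 1.5 times. Quantile normalization gave -0.16. The dimmer Lpl probe had a difference of -0.09 (adjusted p = 0.869 in limma), and the probes correlated at r = 0.66 over the 13 arrays with group means subtracted.

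Pparg encodes PPARγ, the transcription factor that drives adipocyte differentiation. It was 1.76, 2.29 and 2.65 in the KI-treated group and 2.18, 2.46 and 2.87 in the control group. KI-treated animal 6 was lowest and control 6 highest. The estimate of the log2 difference was -0.24 (95% interval -0.57 to 0.08, adjusted p = 0.462 in limma). It was -0.14 without KI-treated animal 6 and with the deposited values, over 1.5 times smaller.

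Ucp1, the proton carrier of brown fat mitochondria, was well above background on all 13 arrays. Its level was 5.28, 6.23 and 7.06 in the KI-treated group and 5.68, 6.50 and 7.0 in the control group. The highest (KI-treated animal 1) and the lowest (KI-treated animal 3) of the 13 animals were both of the KI-treated group, 3.42-fold apart. The difference on the log2 scale came to -0.29 (95% interval -0.89 to 0.31, adjusted p = 0.594 in limma). It was -0.19 without KI-treated animal 6, -0.10 without KI-treated animal 3 and -0.46 without KI-treated animal 1. Quantile normalization gave -0.14 and the deposited values -0.11.

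Cidea, a lipid droplet protein abundant in brown fat, was 0.63, 1.63 and 1.83 in the KI-treated group and 0.56, 1.26 and 1.55 in the control group. KI-treated animals 5, 2, 4 and 1 lay above the control median, KI-treated animals 3 and 6 below it. The log2 difference was 0.28 (95% interval -0.21 to 0.76, adjusted p = 0.541 in limma). It was 0.43 without KI-treated animal 6 and 0.18 without control 7, both changes of over 1.5 times. The estimates of Ucp1 and Cidea thus had opposite signs, each with an interval that includes 0, and whether they differ from each other was not tested.

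**Figure D2:**
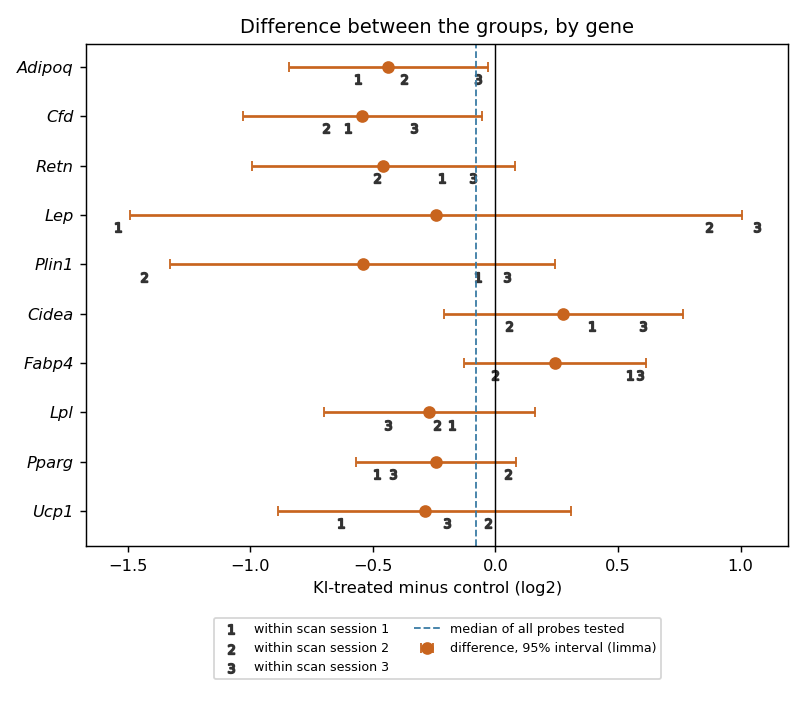
KI-treated minus control mean (horizontal axis, log2) for each of the 10 genes. Points with bars are the limma estimate over 13 arrays and its 95% interval, the numerals give the difference within each scan session, and the dashed line is the median of all probes tested (-0.08). With this scaling the intervals of Adipoq and Cfd lie below 0 and all others include it.

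The arrays were scanned in 3 sessions, each with animals of both groups. Adipoq, Cfd, Retn, Lpl and Ucp1 were lower in the KI-treated group in all 3 sessions and Cidea was higher in all 3. Plin1, Fabp4, Lep and Pparg had differences of both signs. How many of all probes kept 1 sign in all 3 sessions was not computed, and the median difference of all probes tested was itself below 0 (-0.08). The count over sessions is therefore a description only. The sessions hold 2 KI-treated and 2 control animals, 3 and 2, and 1 and 3, so each value rests on few animals. The directions of the 10 genes over all animals were the same under every scaling tried, namely quantile, median, normexp, spot percentile and the deposited values.

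Most of the genes rose and fell together from animal to animal. After subtraction of the group means, the Pearson correlation over the 13 arrays was positive in 41 of the 45 pairs, with a median of 0.53. Without the pairs that include Lep, all 36 were positive with a median of 0.61. These values rested in large part on 1 animal. Without KI-treated animal 6 the median over 45 pairs fell to 0.29, with 33 pairs positive, and over the 36 pairs without Lep it was 0.33, with 29 positive. The lowest pair was then Fabp4 with Pparg, at r = -0.59, against 0.07 over the 13 arrays. All genes of an array share its scaling, and the pairs share their animals.

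Adipoq was set against the other 9 genes and against 6 genes of other cell types, 15 relations in all, with permutations of the animals within groups. Cidea had the highest correlation with Adipoq (r = 0.81, permutation p = 0.00242, adjusted p = 0.0363 over the 15 relations) and was the 1 gene that passed. Its rank correlation (Spearman's rho) was 0.65 (permutation p = 0.0271, adjusted p = 0.137), and r was 0.74 without KI-treated animal 6 and control 6, the animals farthest from the Adipoq median. In that form of the test Cidea did not stay past the threshold throughout. Its adjusted permutation p was above 0.05 when any 1 of 7 animals was left out (KI-treated animals 2, 3 and 6 and controls 3, 4, 5 and 7), reaching 0.182 without KI-treated animal 6, and r was 0.46 with an adjusted permutation p of 0.230 when group means were kept in. In that setting Plin1, Cfd, Retn, Pparg, Lpl and Ucp1 passed instead, with adjusted permutation p between 0.0145 and 0.0278, and with scaling by the array median the same 6 genes passed beside Cidea. Within sessions and groups, r was 0.91 (adjusted permutation p = 0.0728).

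Lpl (r = 0.72, permutation p = 0.0125, adjusted p = 0.0627) and Retn (r = 0.71, permutation p = 0.00987, adjusted p = 0.0627) came next, with r = 0.48 and r = 0.67 without the same 2 animals. Spearman's rank correlation was 0.58 for Lpl (permutation p = 0.0645) and 0.65 for Retn (permutation p = 0.0275). Cfd had r = 0.70 and rho = 0.42 (permutation p = 0.0395 and 0.159), and its r was -0.18 without the 2 animals, so the relation rests on them. Plin1 (r = 0.65, rho = 0.35, permutation p = 0.0345 and 0.252) fell to r = 0.14, and Pparg (r = 0.63, rho = 0.49, permutation p = 0.0401 and 0.111) to r = 0.09. Fabp4 (r = 0.67, rho = 0.48, permutation p = 0.0323 and 0.109) had r = 0.66 without them.

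Ucp1 correlated with Adipoq at r = 0.64 and rho = 0.65 (permutation p = 0.0316 and 0.0255), with r = 0.69 without KI-treated animal 6 and control 6. For Fabp4, Cfd, Plin1, Pparg and Ucp1 the adjusted permutation p of r was 0.0751. Lep had r = 0.36 and rho = 0.31 (permutation p = 0.196 and 0.310), with r = 0.28 without the 2 animals. The lowest adjusted permutation p of any rho was 0.137.

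The genes of other cell types did not pass. Tg had r = -0.09 and rho = -0.09, Pecam1 of endothelium r = -0.12 and rho = -0.26, Dcn of fibroblasts r = -0.25 and rho = -0.19, and Ckm of muscle r = -0.26 and rho = -0.34. Ptprc of leukocytes had r = 0.28 and rho = 0.07 and Pth of the parathyroid r = 0.07 and rho = 0.02. Their adjusted permutation p of r lay between 0.494 and 0.788. The r of Pecam1 was -0.68 without KI-treated animal 6 and control 6.

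**Figure D3:**
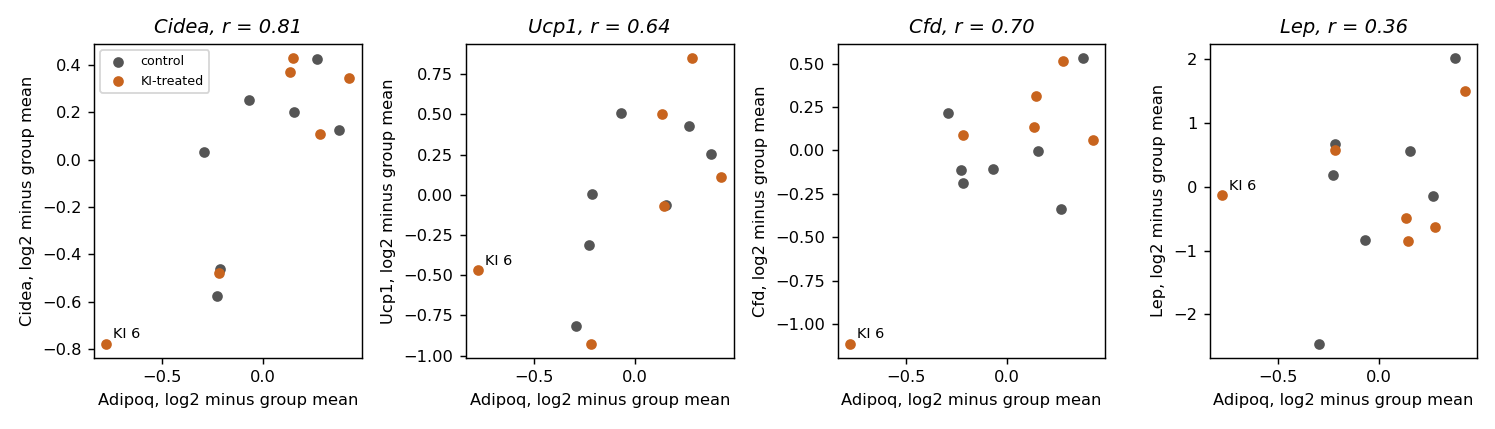
Cidea, Ucp1, Cfd and Lep (vertical axes) against Adipoq (horizontal axes) in 13 animals, each as log2 signal minus the mean of its group. Cidea (r = 0.81) and Ucp1 (r = 0.64) keep r = 0.74 and r = 0.69 without KI-treated animal 6 and control 6, whereas Cfd goes from r = 0.70 to r = -0.18. KI-treated animal 6 is marked as KI 6.

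The brown genes Ucp1 and Cidea varied with each other (r = 0.59, or 0.55 without KI-treated animal 6). Cidea had a median r of 0.76 with the 8 other genes, from -0.12 with Lep to 0.81 with Adipoq, and it lay at 0.76 with Plin1, Fabp4 and Lpl and at 0.75 with Retn. Ucp1 had a median r of 0.28 with the same 8, from 0.13 with Lep to 0.70 with Lpl. Without KI-treated animal 6 the medians were 0.61 and 0.15. The white and shared genes had a median r of 0.53 among themselves over 28 pairs, and 0.50 with the brown genes over 16 pairs. Whether these medians differ was not tested. Among the white genes the highest values were Retn with Fabp4 (r = 0.81) and Plin1 with Cfd (r = 0.79), which were 0.77 and 0.54 without KI-treated animal 6.

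**Figure D4:**
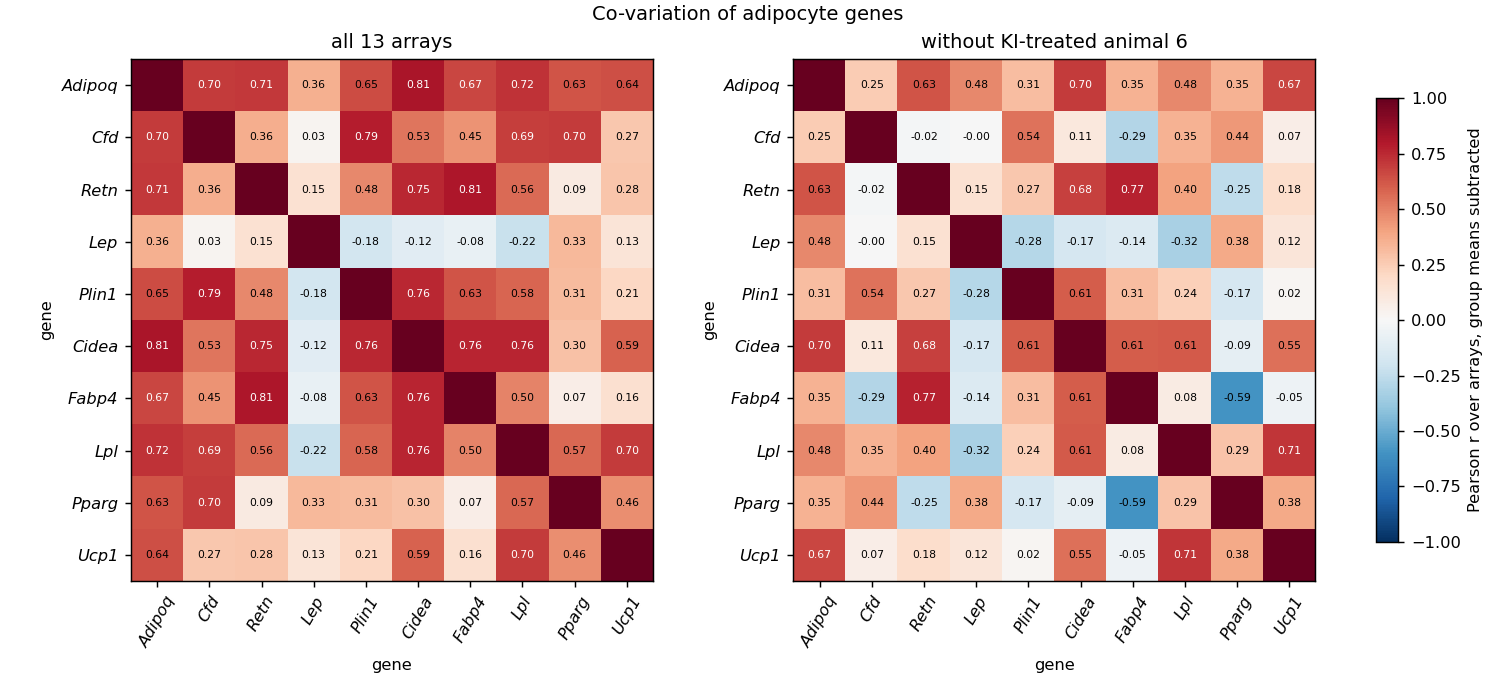
Pearson correlation of each pair of the 10 genes over arrays, group means subtracted, with all 13 arrays (left) and without KI-treated animal 6 (right). Colour and printed value give r. The median over the 45 pairs is 0.53 on the left and 0.29 on the right, and Lep has values near or below 0 with most genes.

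All genes were ranked by their correlation with Adipoq over the 13 arrays, group means subtracted, among 20666 genes, whose median r was -0.004 and whose 95th percentile was 0.416. The 10 highest were Lgals12 (r = 0.90), Ucp3 (0.87), Slc36a2 (0.86), Sct (0.84), ENSRNOT00000050465 (0.84), Slc40a1 (0.83), RGD1305928 (0.82), Gatm (0.82), Cidea (0.81) and Pfkfb1 (0.81). Lgals12 encodes a galectin of adipocytes, Ucp3 a mitochondrial uncoupling protein of muscle and brown fat, and Slc36a2 an amino acid transporter of brown fat. Slc40a1 encodes the iron exporter ferroportin. Cidea is the 1 member among the 10. Of the other adipocyte genes, Lpl stood at rank 31, Retn at 46, Cfd at 52, Fabp4 at 83, Plin1 at 106, Ucp1 at 110, Pparg at 124 and Lep at 1562. The ranking changed without KI-treated animal 6, a setting added after the data were seen. Ucp3 (r = 0.89, rank 2) and ENSRNOT00000050465 (r = 0.89, rank 1) were the 2 of the 10 that were again among the highest 10. The rest of the highest 10 were then Icmt, Ogdh, Hk1, Ppard, Shank1, Sgta, LOC102554906 and ENSRNOT00000037503, none of them in the set or the wider lists. Lgals12 (r = 0.82) went to rank 22, Slc36a2 (r = 0.76) to 63 and Cidea (r = 0.70) to 190. Ucp1 then had rank 294, Retn 463, Lep 1427, Lpl 1482, Fabp4 3089, Pparg 3137, Plin1 3739 and Cfd 4796, and the 95th percentile of r over all genes was 0.529.

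The spread of the genes between animals of a group was compared with that of all probes tested, whose median SD was 0.309. Lep (SD 1.19) and Plin1 (SD 0.738) exceeded 99.2% and 93.7% of all probes tested, and Ucp1 (SD 0.551) and Retn (SD 0.491) exceeded 84.9% and 80.0%. Pparg (SD 0.270) exceeded 38.5% and was the steadiest of the set. Cidea and Cfd (SD 0.439 and 0.441) were alike in spread, at 74.3% and 74.4%.

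Wider lists of adipocyte function held 67 genes, 57 of them outside the set, and 60 had a probe that was tested. Of these, 0 passed an adjusted p of 0.05 in limma, and the median log2 difference was -0.23, beside -0.08 over all probes tested. At an unadjusted 0.05, 2 were higher and 7 lower. The share over all probes was 12.7% for both directions together, and it was not computed by direction. The 2 higher were Abhd5 and Ppargc1a. The 7 lower were Adipoq, Cfd, Cebpa, Elovl3, Cox8b, Otop1 and Clstn3. Elovl3 was above background on 3 of 6 KI-treated and 6 of 7 control arrays, and Clstn3 on 2 of 6 and 4 of 7. These 2 genes thus passed the filter on dim probes mainly through the control group, and their place in the count rests on unmeasured levels. Without KI-treated animal 6, also a setting added after the data were seen, the median was -0.12. At an unadjusted 0.05, 3 of the 60 were then higher (Abhd5, Ppargc1a and Fabp4) and 3 lower (Elovl3, Otop1 and Clstn3), with the same limit for Elovl3 and Clstn3. In that setting 2579 of all 25717 probes tested passed an unadjusted 0.05.

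Lipid droplet and lipolysis genes (9 tested) had 6 higher and 3 lower means, with a median of 0.10. Abhd5, the coactivator of the triglyceride lipase ATGL, was 0.65 higher in the KI-treated group (adjusted p = 0.370 in limma, exact permutation p = 0.0449). Its difference was 1.68, -0.14 and 0.39 within scan sessions 1, 2 and 3. Secreted factors (6 tested) had 1 higher and 5 lower, with a median of -0.34. Transcription factors (8 tested) had 2 higher and 6 lower, with a median of -0.18. Cebpa, a partner of PPARγ in differentiation, was at -0.55 (adjusted p = 0.384 in limma, exact permutation p = 0.0478). Ppargc1a, a coactivator of mitochondrial genes, was at 0.80 (adjusted p = 0.388 in limma, exact permutation p = 0.0711). Within the same sessions Cebpa differed by -1.38, -0.27 and 0.01, and Ppargc1a by 2.27, -0.33 and 0.33.

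Fatty acid and glucose uptake (7 tested) had 1 higher and 6 lower, with a median of -0.17, and the insulin-responsive glucose transporter Slc2a4 was at -0.44 (adjusted p = 0.431 in limma). Fatty acid and triglyceride synthesis (12 tested) had 3 higher and 9 lower, with a median of -0.29. The fatty acid elongase Elovl6 was at -0.75 (adjusted p = 0.416 in limma) and Dgat1, which makes triglyceride, at -0.27 (adjusted p = 0.444 in limma). Adrenergic signalling (6 tested) had 1 higher and 5 lower, with a median of -0.20. The β1-adrenergic receptor Adrb1 was at -0.32 (adjusted p = 0.401 in limma). Its probe was well above background on 4 of 6 KI-treated and 5 of 7 control arrays. The activin receptor Acvr1c was at -0.40 (adjusted p = 0.415 in limma), or -0.23 without KI-treated animal 6.

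Brown fat thermogenesis (13 tested) had 4 higher and 9 lower means, with a median of -0.29. Elovl3, a fatty acid elongase induced in cold-exposed brown fat, was -6.33, -4.77 and -3.57 in the KI-treated group and -4.38, -3.31 and -2.63 in the control group. It was well above background on 3 of 6 KI-treated and 6 of 7 control arrays, and all 6 KI-treated animals lay below the control median. The KI-treated mean minus the control mean was -1.67 (standard error 0.41, adjusted p = 0.342 in limma). On the arrays without a signal above background the level is not measured. Values of those arrays enter the estimate, its standard error and the limma p, so the size of the difference is not known from them. No exact p is given for the same reason. Within the scan sessions it was -0.12, -2.63 and -1.72. Clstn3 was well above background on 2 of 6 KI-treated and 4 of 7 control arrays, and its difference of -1.06 (adjusted p = 0.353 in limma) has the same limit. Cox8b, a subunit of cytochrome oxidase in muscle and brown fat, was at -0.67 (adjusted p = 0.375 in limma, exact permutation p = 0.0396). Otop1, a proton channel gene, was at -0.38 (adjusted p = 0.376 in limma), and was well above background on 5 of 6 KI-treated and 7 of 7 control arrays. Cox8b and Otop1 were named after their values had been seen.

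KI-treated animal 6 had the lowest summed level of 5 of the 7 adipocyte lists, and control 6 the highest of 6. The lists overlap the set: secreted factors hold 4 of its genes, brown fat thermogenesis 2 and adrenergic signalling 0. The sums add levels that are not in log2, so the brightest genes of a list weigh most. For secreted factors the sum, in multiples of the 75th percentile of the array, was 33.9 in KI-treated animal 6. It ran from 33.9 to 86.6 in the KI-treated group and from 59.2 to 112 in the control group. For brown fat thermogenesis it was 69.9 in that animal, 67.4 to 178 in the KI-treated group and 80.5 to 179 in the control group. Skeletal muscle, which shares Cox8b, Ucp3 and Fabp3 with brown fat, had all 11 tested markers lower in the KI-treated group (2 at an unadjusted 0.05), with a median log2 difference of -1.11 and sums of 6.77 to 112 and of 30.3 to 224. The Myh2 probe was not tested. The lowest sum was that of KI-treated animal 4 and the highest that of control 5. Both are of scan session 3, which holds 1 KI-treated array. Within the 3 scan sessions Ckm differed by 0.82, -1.56 and -4.43, and Pvalb by -0.22, -1.46 and -5.59. In session 1 most of the tested muscle markers were higher in the KI-treated group. The part of muscle in the differences was not tested. Fibroblast and preadipocyte markers (11 tested) had 5 higher and 6 lower with a median of -0.08, and sums of 161 to 222 in the KI-treated group and 174 to 295 in the control group, with KI-treated animal 6 at 204, inside both ranges.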

How the data were processed

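Scanner output of 1 file per array was deposited by the authors. The deposited files hold the intensity of every spot as processed by Agilent Feature Extraction (10.7.3.1), that is, background-subtracted but not normalized across arrays. A table of log2 values was deposited by the authors as well. In rank these values follow the median spot signal, and their normalization is not given in the sources used here. The table held 0 columns of other samples. Control spots were dropped, as were spots flagged as outliers (22 values among the 39 spots of the adipocyte genes), and repeats of a probe were averaged. The log2 processed intensity was then expressed relative to the 75th percentile of the probes of its array. The number of arrays limits the precision, and low intensities depend on the background subtraction.

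The 25717 probes above background on at least 6 of 13 arrays were tested by lmFit and eBayes of limma 3.58.1 (R 4.3.3), p-values were adjusted by Benjamini-Hochberg, and exact permutation tests were added for single genes. Correlations used 100000 permutations within groups. Named genes were all members, the 10 genes most correlated with Adipoq, the 2 genes of each wider list with the smallest p, and 6 reference genes. Alternatives were other scalings, background corrections, filters, blocks, weights and leaving out each array.

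The members and lists were chosen with earlier results of these data known. The rule for the 75th percentile does not settle whether it is taken over spots or over probes. It was computed over spots first, and the percentile over probes was made the main setting after both results had been seen, because it matches the earlier processing of these arrays. Both are reported. Cortex samples were not analysed here.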

Additional observations from a re-analysis of the deposited data

Results flagged for a closer look

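Within each group, the highest and the lowest animal were set against the others for 27 probes, those of the adipocyte genes, of the 6 reference genes and of the genes most correlated with Adipoq. Of the 54 groups examined, 5 held a value far from the rest, and chance flags about 1 in 20 groups. In the KI-treated group, animal 6 lay far below the others for Cfd (3.25, next lowest 4.43), Plin1 (-4.91, next lowest -3.17) and Lgals12 (-1.57, next lowest -0.76). For Ptprc of leukocytes, KI-treated animal 1 lay far above the others (0.53, next highest -1.38), and the summed level of the lymphocyte markers was 23.9 in that animal. For Ckm of muscle, control 5 lay far above the other controls (4.28, next highest 2.11).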

How the results depend on the processing

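The count of adipocyte gene probes past an adjusted p of 0.05 in limma was 0 in every setting run, and the lowest adjusted p of any of them was 0.182. Over all probes the count was 0 except for 50 with array quality weights, 1 without control 1 and 1 without control 2. At an unadjusted 0.05, 3 adipocyte genes passed with normexp correction and the 75th percentile, 1 with scan session as a block, and 0 without control 6. The counts over all 25717 probes in these settings were 4593, 5120 and 2619. The count of adipocyte genes also fell to 1 without KI-treated animal 3, control 1, control 3 or control 5, each left out alone. Over all probes 2806, 4598, 3292 and 3469 then passed. The difference of Lep turned sign with scan session as a block (0.10), and ran from -0.65 to 0.094 when each array was left out, the latter without control 6. Its correlation with Adipoq was -0.012 with means of session and group subtracted. The differences of the other 9 genes kept their direction when single arrays were left out and under the other settings. So did the correlations of the other 8 with Adipoq, but Cfd had r = -0.18 with Adipoq without KI-treated animal 6 and control 6. Some pairs turned sign without KI-treated animal 6. Among them, Fabp4 with Pparg went from 0.07 to -0.59, the lowest of all pairs, and Fabp4 with Cfd from 0.45 to -0.29. Retn with Pparg went from 0.09 to -0.25 and Plin1 with Pparg from 0.31 to -0.17. The median difference ran from -0.32 to -0.17 over the settings and from -0.42 to -0.21 when each array was left out. The median correlation over pairs ran from 0.45 to 0.70, and from 0.29 without KI-treated animal 6 to 0.57 without control 2.

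Taking the 75th percentile over all gene spots moved the median of all probes tested from -0.08 to 0.001. With it, the median difference of the adipocyte genes was -0.20, and Fabp4 (adjusted permutation p = 0.0491), Retn (0.0281) and Lpl (0.0364) passed with Adipoq beside Cidea (0.0178). Fabp4, Cfd, Retn, Lpl and Ucp1 passed with the deposited log2 values. Without the filter on dim probes the median of all probes was -0.17, and with normexp correction and the 75th percentile it was -0.10.

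The replicate block, which pairs animals of the same number, gave differences of -0.48 for Adipoq and -0.56 for Cfd (adjusted p = 0.543 and 0.539 in limma) and left 0 calls. The labels do not say whether the numbers pair the animals. Arrays of the same number deviated together with r between -0.11 and 0.07, which cannot exclude a weak pairing. The replicate block changed no adjusted call, and Adipoq and Cfd no longer passed an unadjusted 0.05.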

Other observations

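Markers of the other cell types that a dissected thyroid can hold were summed in the same way, in multiples of the 75th percentile of the array, and none of their genes passed an adjusted p of 0.05 in limma. Follicular cell markers summed to 1208 to 1357 in the KI-treated group and 1260 to 1883 in the control group, with a median log2 difference of -0.17, 10 of 11 tested markers lower in the KI-treated group and 1 higher. Tg was at -0.26, with all 6 KI-treated animals below the control median (exact permutation p = 0.0303, adjusted p = 0.390 in limma). Endothelial markers summed to 99.8 to 127 and 93.3 to 169 (median -0.05, 4 higher and 7 lower), and macrophage markers to 34.6 to 44.5 and 30.8 to 67.1 (median -0.13, 3 higher and 6 lower). Lymphocyte markers, of which 5 of 9 with a probe were not tested, summed to 0.707 to 23.9 and 0.889 to 2.72 (median 0.46, 4 higher means and 0 lower). KI-treated animal 6 had the lowest sum and KI-treated animal 1 the highest. KI-treated animal 1 was also the highest of all animals for each of the 4 tested. Of the 6 KI-treated animals, 5 lay below the control median for Cd3d, 4 for Cd3g, 4 for Lck and 3 for Ptprc.

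Parathyroid markers summed to 389 to 533 in the KI-treated group and 416 to 728 in the control group (median log2 difference 0.31, 3 higher and 1 lower), and C cell markers to 103 to 264 and 89.1 to 280 (median -0.19, 1 higher and 3 lower). Peripheral nerve markers summed to 18.9 to 33.6 and 17.7 to 38.4 (median -0.03, 3 higher and 4 lower), and blood markers to 8.11 to 13.3 and 5.31 to 10.2 (median 0.16, 4 higher and 1 lower). KI-treated animal 6, lowest for most adipocyte genes, was the highest of its group for C cell markers (264) and the lowest of its group for nerve markers (18.9).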
